A study of Mus musculus with 24 samples.

Results

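Complex I, the NADH:ubiquinone oxidoreductase of the inner mitochondrial membrane, was followed through the transcripts of its nuclear-encoded subunits and of the Ndufaf assembly factors. Members were all genes whose symbol starts with Nduf and that have a RefSeq protein-coding entry (an accession starting NM_) in the deposited expression table. Where a gene had several such entries, the entry with the highest mean over the 24 libraries was used. This gave 45 of the 20461 symbols with a RefSeq mRNA entry. They comprised 36 subunits, 7 assembly factors and 2 genes, Ndufa4 and Ndufa4l2, which carry an Nduf name but are assigned to complex IV.

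The libraries came from primary brite adipocytes, which are white fat cells driven towards a thermogenic, brown-like state. Cells of the stromal vascular fraction of inguinal white fat from 129SvEv mice underwent 2 days of induction and 1 day of differentiation, in all groups with rosiglitazone, a PPARγ agonist. They then received 50 nM of an LNA gapmer, an antisense oligonucleotide that recruits RNase H, either against the long noncoding RNA Ctcflos (KD) or nontargeting (NC), and RNA was taken 24 h or 72 h after transfection. This made 4 groups of 6 libraries each, named here by gapmer and time, and all libraries were made by BRB-seq, in which barcoded oligo-dT primers capture 3′ ends. The mice were 5 to 6 weeks old when cells were prepared, and the study's text calls the replicates biological. Neither it nor the labels say whether each library was a separate animal, so p-values measure the spread between these libraries.

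Complex I takes electrons from NADH and passes them through a flavin and a chain of iron-sulphur clusters to ubiquinone, and it pumps protons across the inner membrane. It is L-shaped, with a peripheral arm in the matrix that holds the redox centres and a membrane arm that holds the pumps. The core subunits of the membrane arm are encoded by mitochondrial DNA, all others by the nucleus. Core subunits are conserved from bacteria, whereas accessory subunits were added later around them. Assembly factors bind intermediates of the complex and are absent from the finished enzyme. In brown and brite adipocytes the NADH made by fuel oxidation enters the respiratory chain here, upstream of the uncoupling protein Ucp1.

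Short promoter stretches show which members share sequence motifs bound by known regulators of mitochondrial genes. RefSeq promoter windows (250 bases before to 50 after the start, GRCm38.p6) could be matched by symbol for 39 of the 45 members, giving 41 windows. The core of the site bound by NRF1, a factor known for activating respiratory chain genes, was searched as GCATGCGC on both strands. It was found in 12.2% of the members' windows (5 of 41) and in 2.71% of all 32851 windows. The stretches around the matches are given 5′ to 3′ on the strand of the gene, with the matched letters in capitals (overlapping matches on both strands are merged).
Ndufa11, chr17:56717692-56717721, plus strand: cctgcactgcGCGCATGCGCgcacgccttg
Ndufa6, chr15:82354357-82354384, minus strand: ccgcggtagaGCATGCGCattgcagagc
Ndufa8, chr2:36049329-36049356, minus strand: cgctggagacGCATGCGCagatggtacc
Ndufaf4, chr4:24897960-24897989, plus strand: ccagatgtctGCGCATGCGCctgtgcggaa
Ndufaf4, second match, chr4:24898074-24898101, plus strand: cccctggtgtGCGCATGCtccgtgcgta
Ndufaf5, chr2:140170652-140170681, plus strand: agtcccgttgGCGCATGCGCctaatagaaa

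The YY1 motif was searched as AAGATGGCG, on both strands, with the same display. YY1 is a zinc finger factor that binds near the start of many mitochondrial genes. This motif was in 12.2% of the members' windows (5 of 41) and in 1.4% of all windows. All 5 matches lay on the strand of the gene, 23 to 36 bases after the start.
Ndufa9, chr6:126849097-126849125, minus strand: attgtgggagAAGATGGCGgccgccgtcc
Ndufc1, chr3:51408915-51408943, minus strand: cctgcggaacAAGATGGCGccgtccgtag
Ndufs4, chr13:114388045-114388069, minus strand: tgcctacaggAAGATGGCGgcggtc
Ndufs6, chr13:73328433-73328459, minus strand: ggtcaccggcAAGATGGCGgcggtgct
Ndufs7, chr10:80249463-80249491, plus strand: ggccgaggccAAGATGGCGgcgctggcgg

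The ETS motif, searched as CCGGAAGT, was found for Ndufs3 alone (2.44% of the members' windows and 3.89% of all windows). The ERR motif, searched as TCAAGGTCA, was in none of the 41 windows and in 0.423% of all windows. These matches describe letters in a window. Among the 10 members with an NRF1 or YY1 match, 6 (60%) were lower in KD at 72 h, near the 65.9% of all 44 members tested, and 4 (Ndufa9, Ndufs6, Ndufaf4 and Ndufaf5) were not called.

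Levels are given as scaled RPKM, the deposited RPKM (reads normalised to transcript length and library size) divided by a factor per library that centres most entries of the table. RPKM divides by transcript length although BRB-seq reads come from 3′ ends, so levels of different genes are only roughly comparable. Changes are differences of log2(scaled RPKM + 0.1), and a member was called where the Benjamini-Hochberg adjusted p of limma, over all entries tested, was under 0.05. Read totals, recovered from the steps of the RPKM values, ran from 1391830 to 5926367 per library with a median of 4009996. Replicates 2 and 3 of NC 72 h differed by less than counting noise (ratio to the noise 0.34, against 2.00 for the next of 276 pairs) and were averaged as 1 sample, which left 5. The scaling mattered at 72 h: without it the median change of all entries was 0.25 rather than 0.01.

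The libraries also fell into clusters that the labels do not name. Deviations from the group means over 2681 genes, members left out, split them into 16 and 8 libraries, with 2 of each group in the smaller cluster. The comparisons of KD and NC are therefore also given within the larger and within the smaller cluster. Adipocyte markers were high: Fabp4, a fatty acid binding protein, averaged 36830 RPKM, and the 4 endothelial markers were under 1 RPKM in every group. Preadipocyte and fibroblast markers were present too, with means of 170.9 RPKM for Col1a1, 31.4 for Thy1 and 8.81 for Pdgfra, while Dlk1 had 0.56. The target gene, Ctcflos (1300015D01Rik, entry NR_040321), had 12 reads in KD 24 h against 60 in NC 24 h, and 17 against 101 at 72 h. This entry passed the filter at 72 h only, where its log2 change was -2.49 ± 0.48 (SE, limma adjusted p = 0.00227). There all NC samples (0.948 to 1.92 scaled RPKM) lay above all KD libraries (0 to 0.457), so it could pass through NC alone. The p-value is thus no independent support for the knockdown. Another entry of the gene, ENSMUST00000144256, is transcript 1, which the study's text gives as the target of its gapmer ASO 1. This transcript had 8 reads in KD 24 h against 12 in NC 24 h and 3 against 41 at 72 h, and it passed the filter at neither time. At 24 h its highest KD library (0.933 scaled RPKM) was above its highest NC library (0.815), so the reduction of this transcript at 24 h was not detectable at this depth.

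Of the 45 members, 44 passed the filter on low values in both comparisons. Ndufs5, an accessory subunit on the intermembrane side, had 18 reads over all 24 libraries in the entry used and was not tested. Mean levels ran from 2.98 RPKM for Ndufaf5 to 2988 RPKM for Ndufa4 among the 44. Assembly factors were sequenced less deeply than most subunits. Median reads per library were 23 for Ndufaf6, 36.5 for Ndufaf5, 105 for Ndufaf3, 120.5 for Ndufaf7, 126.5 for Ndufaf1, 148.5 for Ndufaf2 and 254 for Ndufaf4, against 591.5 for Ndufs4 and 1058 for Ndufs1. The SE of a member's change had a median of 0.22 in the assembly factors and 0.11 in the subunits at 24 h, and 0.14 and 0.10 at 72 h.

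At 24 h after transfection, 12 of 44 members were lower in KD and 0 were higher, among them 11 of 35 subunits (31.4%) and 1 of 7 assembly factors (14.3%). Over all 52005 entries tested, 12.0% were lower. These hold several entries for many genes. With 1 RefSeq entry per symbol, tested on their own, 1335 of 9386 were lower. At an unadjusted p under 0.05, 20 members were lower (45.5%, against 19.4% of all entries) and 0 higher. Voom on the recovered reads called 13 members lower (29.5%, against 13.2% of all entries). For some members these reads rest on a substitute length, as given under the processing. The median change was -0.22 over subunits and -0.32 over assembly factors, against -0.02 over all entries. By role, 3 of 7 core subunits, 3 of 9 accessory subunits of the peripheral arm and 5 of 18 of the membrane arm were lower. Every KD library was below every NC library for 7 members, and for 6.63% of all entries.

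At 24 h the clusters gave unlike counts, a difference that was not tested. Within the larger cluster 21 members were lower (13.0% of all entries), 18 of them subunits, and the median change was -0.36 over subunits and -0.39 over assembly factors. Within the smaller cluster, with 2 libraries a group, limma called 0 members, where 1.54% of all entries were lower. There 4 members were lower and 1 higher at an unadjusted p under 0.05, where 10.3% of all entries were lower and 10.7% higher, and the medians were -0.05 and -0.07. The count also fell to 5 without KD replicate 1 (9.42% of all entries lower) or without NC replicate 4 (9.01%), and to 7 without NC replicate 2 (9.12%) or NC replicate 3 (9.16%). With the Ensembl entry of each gene in place of the RefSeq entry, 2 of 28 members were lower (7.14%), a share below the 12.0% of all entries. Without scaling it was 10, where 10.4% of all entries were lower.

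At 72 h, 29 of 44 members were lower in KD and 0 were higher. This was 27 of 35 subunits (77.1%) and 2 of 7 assembly factors (28.6%), while 11.8% of all 54446 entries tested were lower. With 1 RefSeq entry per symbol, 1320 of 9843 were lower. At an unadjusted p under 0.05, 34 members were lower (77.3%, against 18.1% of all entries) and 0 higher, and voom called 30 lower (68.2%, against 12.8%). The median change was -0.46 over subunits, with 34 of 35 negative, and -0.33 over assembly factors, with 6 of 7 negative. The membrane arm accessory subunits had the highest share called, 16 of 18, followed by 7 of 9 of the peripheral arm and 4 of 7 core subunits. For 21 members every KD library lay below every NC library, which held for 7.57% of all entries.

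Scaling and cluster changed the count at 72 h. Without scaling 8 members were lower (Ndufaf3, Ndufs8, Ndufv2, Ndufa1, Ndufb11, Ndufb9, Ndufs4 and Ndufv3), where 5.70% of all entries were lower, and the subunit median of -0.21 stood against 0.25 for all entries. Within the larger cluster 35 members were lower (12.8% of all entries) with a subunit median of -0.55. Within the smaller cluster 4 were lower (Ndufs4, Ndufv3, Ndufs8 and Ndufa6, against 6.80% of all entries), and the subunit median was -0.29. Ndufs4, Ndufv3 and Ndufs8 were the members called lower at 72 h in each of 24 settings compared. These settings all used the RefSeq entry of a member, so the change to Ensembl entries is not among them.

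**Figure D1:**
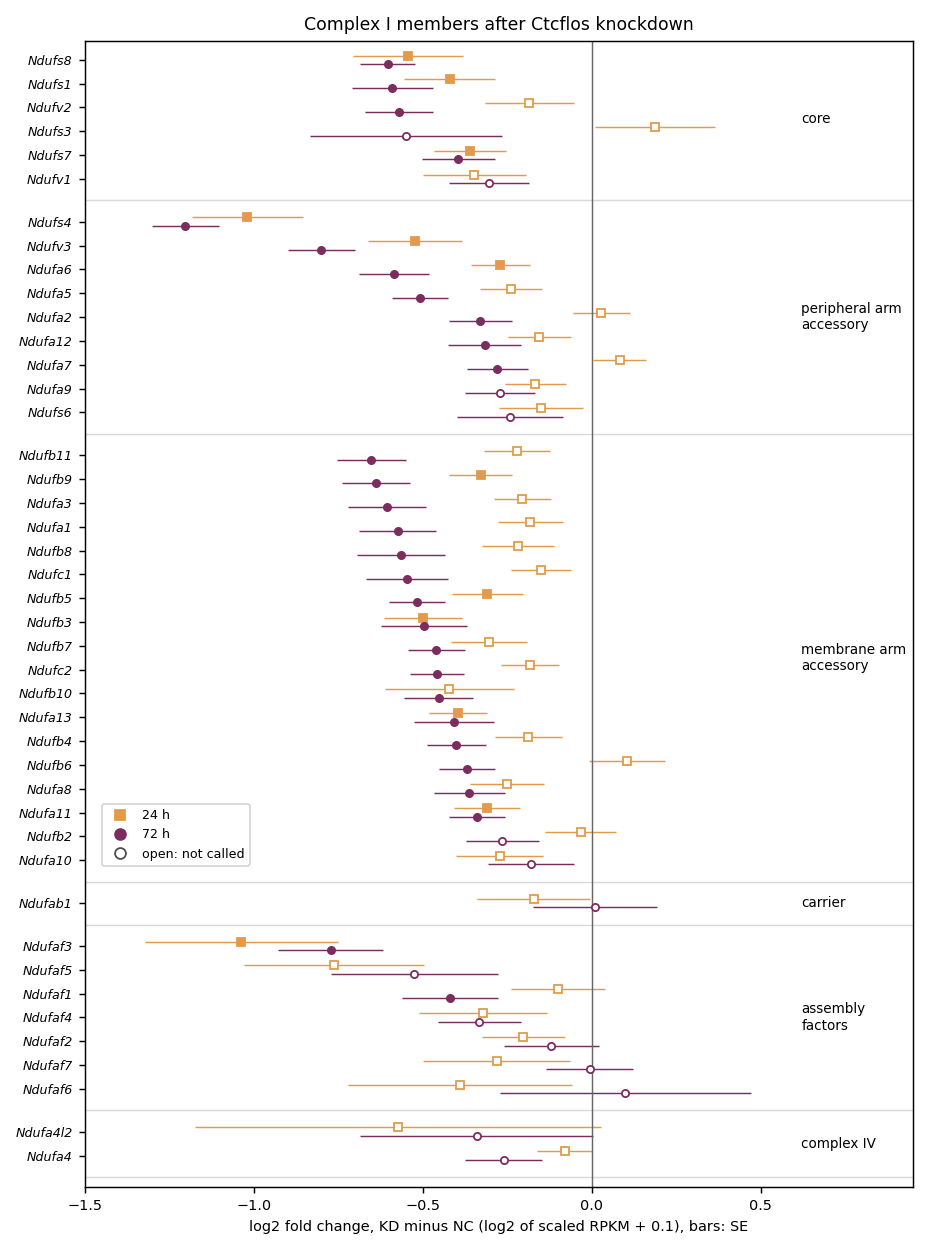
Log2 fold change (KD minus NC, with SE as bars) of 43 members, at 24 h (squares) and 72 h (circles), grouped by role; filled symbols were called by limma. Ndufs4 lies farthest left at 72 h (-1.20), and Ndufab1 is the subunit shown above 0 at 72 h.

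All 12 members called at 24 h were also called at 72 h, which is 100% of the earlier list and 41.4% of the later one. The same shares over all entries were not computed, so the overlap is not given as particular to complex I. Over the 24 settings compared, which leave out the Ensembl entries, the 24 h calls held in 10 (Ndufb5) to 23 (Ndufa13, Ndufaf3, Ndufb3, Ndufs4 and Ndufv3). The joint members were Ndufa6, Ndufa11, Ndufa13, Ndufaf3, Ndufb3, Ndufb5, Ndufb9, Ndufs1, Ndufs4, Ndufs7, Ndufs8 and Ndufv3. Both comparisons use separate libraries at each time.

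Ndufs4 (NM_010887), an accessory subunit where the NADH-oxidising module joins the rest of the peripheral arm and whose loss causes Leigh syndrome, had the largest change of the subunits at both times. At 24 h its level was 44.4 to 94.0 scaled RPKM in KD (median 55.8) and 118 to 130 in NC (median 124). At 72 h it was 50.2 to 70.6 in KD (median 60.7), and the 5 NC samples had 146, 132, 127, 138 and 138. The groups did not overlap at either time, and the 2 highest KD libraries at 24 h were both of the smaller cluster. The log2 change was -1.02 ± 0.16 (SE, limma adjusted p = 0.00111) at 24 h and -1.20 ± 0.10 (limma adjusted p = 5.157e-06) at 72 h. Within the smaller cluster it was -0.44 (adjusted p = 0.0592, limma) at 24 h and -0.99 (adjusted p = 0.00232) at 72 h.

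Ndufv3 (NM_001083891), a small accessory subunit of the same module, followed it. Its level at 24 h was 403 to 778 in KD (median 609) and 768 to 978 in NC (median 878), with an overlap of the groups. At 72 h KD libraries had 560 to 784 (median 628), and NC had 1129, 1208, 1080, 1177 and 1088, so the groups were apart. The log2 change was -0.52 ± 0.14 (limma adjusted p = 0.0159) at 24 h and -0.80 ± 0.10 (limma adjusted p = 9.433e-05) at 72 h. Among the other peripheral arm accessory subunits, Ndufa6, a LYR-motif protein, was lower at both times (-0.27 and -0.59). Ndufa5, Ndufa2, Ndufa12 and Ndufa7 passed the threshold at 72 h and not at 24 h, with changes of -0.51 to -0.28 at 72 h, while Ndufa9 (-0.27) and the zinc-binding Ndufs6 (-0.24) were not called. The 72 h call held in 10 of 24 settings for Ndufa12 (limma adjusted p = 0.0488) and in 14 for Ndufa7 (limma adjusted p = 0.0396). It held in 22 for Ndufa5 and in 20 for Ndufa2.

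The core subunits that carry the redox chain were uneven. Ndufs8 (NM_144870), an iron-sulphur protein next to the quinone site, had at 24 h 92.9 to 210 in KD (median 181) and 228 to 267 in NC (median 242). At 72 h KD had 170 to 210.5 (median 192) and the NC samples 297, 297, 282, 266 and 298.5. KD and NC did not overlap at either time. The change was -0.54 ± 0.16 (limma adjusted p = 0.0278) and -0.60 ± 0.08 (limma adjusted p = 0.000203).

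Ndufs1 (NM_145518), which holds several iron-sulphur clusters of the NADH module, was at 62.4 to 114 in KD 24 h (median 87.0) and 102 to 122 in NC 24 h (median 119). The 72 h KD libraries had 58.5 to 98.7 (median 75.0) and NC 119, 114, 111, 118 and 106. The groups overlapped at 24 h and were apart at 72 h. Its change was -0.42 ± 0.14 (limma adjusted p = 0.0371) at 24 h and -0.59 ± 0.12 (limma adjusted p = 0.00320) at 72 h. Exons of Ndufs1 overlap Eef1b2 and Ino80dos on the other strand in GENCODE M21, and how strand was handled in counting is not given in the sources used here.

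Ndufv2 (NM_028388), an iron-sulphur subunit beside the flavin, was called at 72 h and not at 24 h (-0.19 ± 0.13, limma adjusted p = 0.326). At 72 h its KD libraries had 154 to 228 (median 187) and NC 304, 283, 283.5, 277 and 251, with no overlap. The change was -0.57 ± 0.10 (limma adjusted p = 0.00124). Ndufs7 (NM_029272), whose cluster hands electrons to ubiquinone, was lower at both times. Its levels were 184 to 287.5 in KD 24 h (median 247) and 297 to 330 in NC 24 h (median 314). KD libraries at 72 h had 201 to 285 (median 237.5) and NC 379, 328, 292, 281 and 316, where 1 NC sample fell inside the KD range. Its changes were -0.36 ± 0.11 (limma adjusted p = 0.0250) and -0.40 ± 0.11 (limma adjusted p = 0.0178).

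Ndufv1 and Ndufs3 were not called at either time, and their levels overlapped between groups. Ndufv1 (NM_133666), which binds the flavin and NADH, had changes of -0.35 ± 0.15 and -0.31 ± 0.12 (limma adjusted p = 0.113 and 0.0808), and within the larger cluster it was lower at 72 h (-0.54, limma adjusted p = 0.00304). Ndufs3 (NM_026688) had a median of 28 reads per library and changes of 0.19 ± 0.18 and -0.55 ± 0.28 (limma adjusted p = 0.464 and 0.182).

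**Figure D2:**
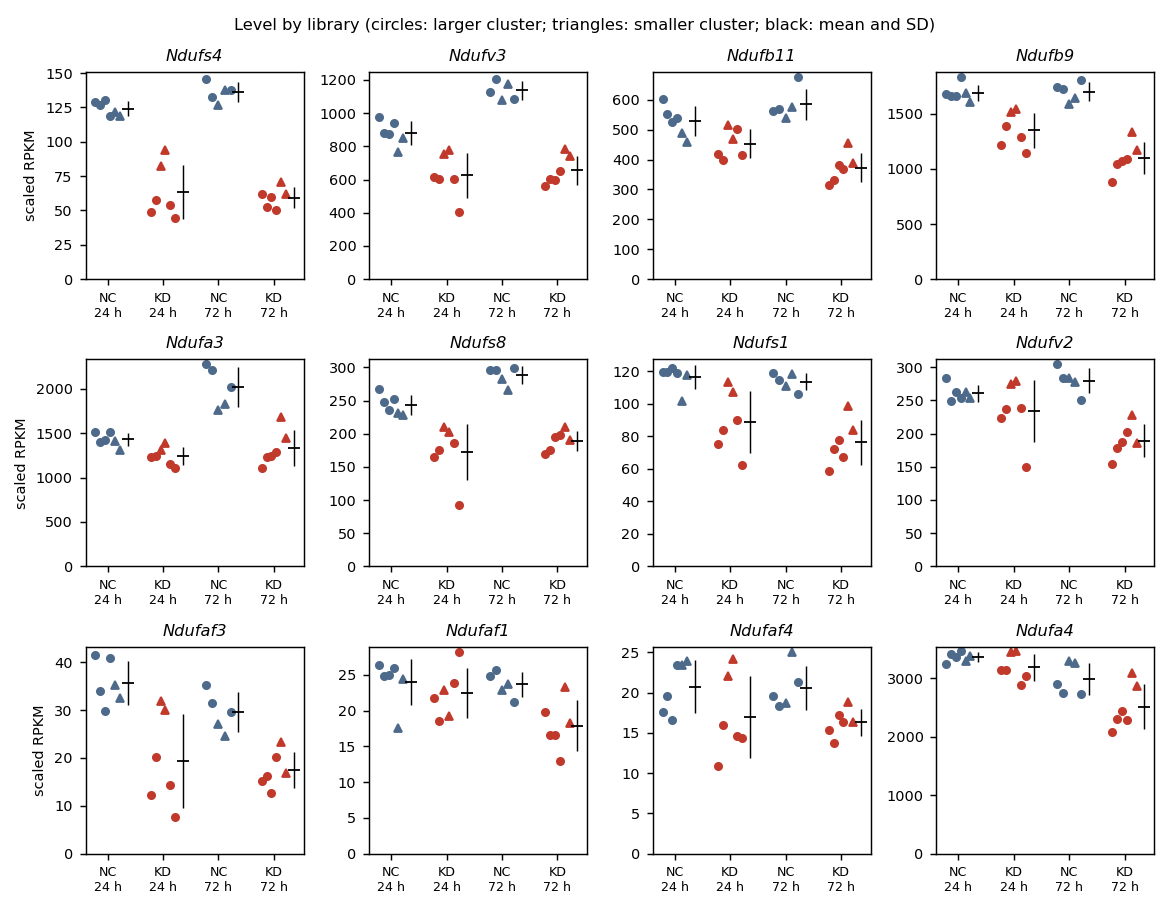
Scaled RPKM (y axis, from 0) of 12 members in every library of NC (blue) and KD (red) at 24 h and 72 h, with circles for the larger and triangles for the smaller cluster; black marks give mean and SD. KD and NC of Ndufs4 do not overlap at either time, whereas those of Ndufaf4 and Ndufa4 overlap at both.

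More of the membrane arm accessory subunits passed the threshold at 72 h (16) than at 24 h (5). Ndufb11 (NM_019435), encoded on the X chromosome, had 400 to 514 in KD 24 h (median 443) and 460 to 602 in NC 24 h (median 533), a change of -0.22 ± 0.10 that was not called (limma adjusted p = 0.113). In KD 72 h libraries it was 315 to 454 (median 375), and NC samples had 561, 569, 540, 577 and 675. All KD libraries were then below all NC samples, with a change of -0.65 ± 0.10 (limma adjusted p = 0.000571). Exons of Ndufb11 overlap Rbm10 on the other strand.

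Ndufb9 (NM_023172), a LYR-motif protein of the far end of the arm, was at 1147 to 1545 in KD 24 h (median 1343) and 1606 to 1834 in NC 24 h (median 1674). Its KD 72 h range was 885 to 1336 (median 1082), and NC samples had 1745, 1722, 1586, 1648 and 1806. The groups were apart at both times. Its change was -0.33 ± 0.09 (limma adjusted p = 0.0214) and -0.64 ± 0.10 (limma adjusted p = 0.000602).

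Ndufa3 (NM_025348), a small single-pass membrane subunit, had 1112 to 1385 in KD 24 h (median 1237) and 1309 to 1519 in NC 24 h (median 1418). For KD 72 h the range was 1112 to 1680 (median 1265), and NC samples had 2275, 2217, 1766, 1830 and 2021. NC samples at 72 h were all above the KD libraries, and the change was -0.61 ± 0.11 (limma adjusted p = 0.00202). Ndufb3 (NM_025597) had the largest change of this arm at 24 h, with 198 to 306 in KD (median 243) and 314 to 383 in NC (median 352), a change of -0.50 ± 0.12 (limma adjusted p = 0.00792). At 72 h its KD libraries had 238 to 304 (median 247) and NC 391, 409, 276, 305 and 453, so that the groups overlapped through an NC sample of the smaller cluster (276). The change was again -0.50 ± 0.13 (limma adjusted p = 0.0124).

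The other membrane arm subunits called at 72 h were Ndufa1, Ndufa8, Ndufa11, Ndufa13, Ndufb4, Ndufb5, Ndufb6, Ndufb7, Ndufb8, Ndufb10, Ndufc1 and Ndufc2, with changes of -0.58 to -0.34. Ndufa13 (also known as GRIM-19), Ndufa11 and Ndufb5 were lower at 24 h as well, by -0.40, -0.31 and -0.31. Ndufa10 (-0.18 ± 0.13) and Ndufb2 (-0.27 ± 0.11) were the members of this arm that were tested and not called at 72 h. Exons overlap another gene on the other strand in Ndufa11, Ndufa13, Ndufa3, Ndufb2, Ndufb5 and Ndufb6, and on the same strand in Ndufb2, Ndufb8 and Ndufb9.

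Ndufab1 (NM_028177), the mitochondrial acyl carrier protein, is a subunit that also serves lipoate synthesis and binds LYR-motif subunits. Its level was 11.3 to 21.3 in KD 24 h (median 18.8) and 16.2 to 21.8 in NC 24 h (median 19.5). At 72 h KD had 8.82 to 14.1 (median 10.6) and NC 17.1, 11.1, 9.96, 9.49 and 9.33. Groups overlapped at both times, with changes of -0.17 ± 0.17 and 0.01 ± 0.18 (limma adjusted p = 0.475 and 0.980). The result depended on the entry: the Ensembl entry ENSMUST00000130904, whose mean was 457 RPKM against 14.7 RPKM for the RefSeq entry, was lower in KD at 72 h by -0.31 ± 0.10 (limma adjusted p = 0.0413).

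The assembly factors were sorted by the step they serve. Ndufaf3 and Ndufaf4 bind each other and the early quinone module. Ndufaf3 (NM_023247) was the assembly factor called at both times. At 24 h it had 7.68 to 31.9 in KD (median 17.2) and 29.7 to 41.6 in NC (median 34.7), and the overlap came from the 2 KD libraries of the smaller cluster. The 72 h KD libraries had 12.8 to 23.3 (median 16.6) and NC 35.3, 31.4, 27.0, 24.6 and 29.6, with no overlap. The change was -1.04 ± 0.29 (limma adjusted p = 0.0189) and -0.77 ± 0.15 (limma adjusted p = 0.00293). Within the smaller cluster it was -0.13 at 24 h and -0.37 at 72 h (limma adjusted p = 0.637 and 0.302). Its exons overlap Impdh2 on the other strand.

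Ndufaf4 (NM_026742) had 10.8 to 24.3 in KD 24 h (median 15.3) and 16.6 to 23.9 in NC 24 h (median 21.5). KD libraries at 72 h had 13.7 to 18.8 (median 16.4) and NC 19.6, 18.4, 18.8, 25.0 and 21.3. The groups overlapped at both times, and the changes of -0.32 ± 0.19 and -0.33 ± 0.12 were not called (limma adjusted p = 0.231 and 0.0654).

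Ndufaf1 (NM_027175) works with Ecsit, Acad9 and Tmem126b on the membrane arm. It had 18.6 to 28.2 in KD 24 h (median 22.3) and 17.6 to 26.4 in NC 24 h (median 25.0), a change of -0.10 ± 0.14 (limma adjusted p = 0.630). In KD 72 h libraries it was 13.0 to 23.3 (median 17.4), and NC samples had 24.9, 25.7, 22.9, 23.8 and 21.2, so the groups still overlapped. It was lower by -0.42 ± 0.14 (limma adjusted p = 0.0461), a call that held in 11 of 24 settings. Within the larger cluster the change was -0.55 (limma adjusted p = 0.0302) and within the smaller -0.17 (limma adjusted p = 0.647).

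Ndufaf5 and Ndufaf7 modify arginines of core subunits. Ndufaf5 (NM_027093) had 1.01 to 3.39 in KD 24 h (median 2.56) and 3.44 to 4.98 in NC 24 h (median 3.56). The groups did not overlap at 24 h, yet the change of -0.76 ± 0.27 missed the threshold (limma adjusted p = 0.0525). Its KD 72 h range was 1.69 to 3.34 (median 2.18), and NC samples had 2.37, 4.65, 4.02, 2.36 and 3.35, a change of -0.53 ± 0.25 (limma adjusted p = 0.143). Ndufaf7 (NM_028611) had 5.47 to 15.2 in KD 24 h (median 13.5) and 12.3 to 16.9 in NC 24 h (median 13.7), a change of -0.28 ± 0.22 (limma adjusted p = 0.362). At 72 h its KD range of 11.2 to 16.0 (median 13.2) covered every NC sample (14.7, 12.5, 14.3, 11.7 and 13.3), and the change was -0.01 ± 0.13 (limma adjusted p = 0.980).

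Ndufaf2 (NM_001127346), a relative of the subunit Ndufa12 that holds its place late in assembly, had 41.4 to 56.5 in KD 24 h (median 45.9) and 41.8 to 65.2 in NC 24 h (median 54.9). For KD 72 h the range was 39.7 to 63.8 (median 55.6), and NC samples had 58.7, 51.8, 59.4, 74.1 and 47.5. Groups overlapped, with changes of -0.20 ± 0.12 and -0.12 ± 0.14 (limma adjusted p = 0.243 and 0.578). Ndufaf6 (NM_001085493), which acts early on the membrane arm, spread widely within groups, from 2.56 to 10.5 in KD 24 h (median 4.22) and from 3.35 to 9.77 in NC 24 h (median 6.17). At 72 h KD had 3.74 to 9.83 (median 5.67) and NC 10.2, 6.57, 2.03, 4.25 and 9.48. Its changes were -0.39 ± 0.33 and 0.10 ± 0.37 (limma adjusted p = 0.412 and 0.880).

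A larger share of subunits than of assembly factors was called at both times, a difference that was not tested. The subunit median of the changes minus the assembly factor median was 0.10 at 24 h and -0.12 at 72 h. Among assembly factors the lower share called went with fewer reads per library and a larger SE, whose part in the result was not tested.

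**Figure D3:**
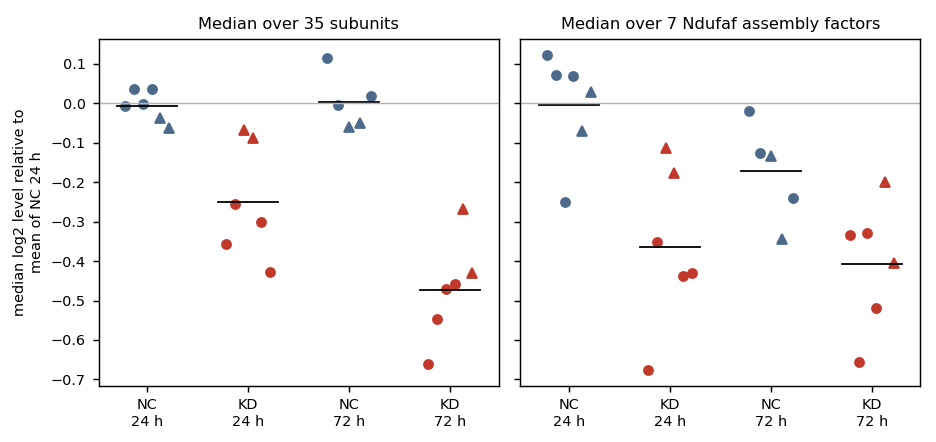
Median over the 35 subunits (left) and over the 7 assembly factors (right) in each library, as log2 level relative to the mean of NC 24 h; lines are group means, circles the larger and triangles the smaller cluster. The subunit median of every KD library lies below that of every NC sample at its time, but only just at 24 h (highest KD -0.068, lowest NC -0.062). That of the assembly factors overlaps at both times.

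By library, the subunit median relative to the mean of NC 24 h was -0.25 ± 0.15 (SD, n = 6) in KD 24 h, with a range of -0.427 to -0.068. In NC 24 h it was -0.01 ± 0.04 (n = 6), from -0.062 to 0.035. At 72 h it was -0.47 ± 0.13 (n = 6) in KD, from -0.66 to -0.27, and 0.00 ± 0.07 (n = 5) in NC. The 2 smallest decreases in KD 24 h were those of the smaller cluster. The assembly factor median was -0.36 ± 0.20 (n = 6) in KD 24 h, -0.01 ± 0.14 (n = 6) in NC 24 h, -0.41 ± 0.16 (n = 6) in KD 72 h and -0.17 ± 0.12 (n = 5) in NC 72 h. KD minus NC of these library medians was thus -0.24 for subunits and -0.36 for assembly factors at 24 h, and -0.48 and -0.23 at 72 h. These differences between subunits and assembly factors were not tested.

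**Figure D4:**
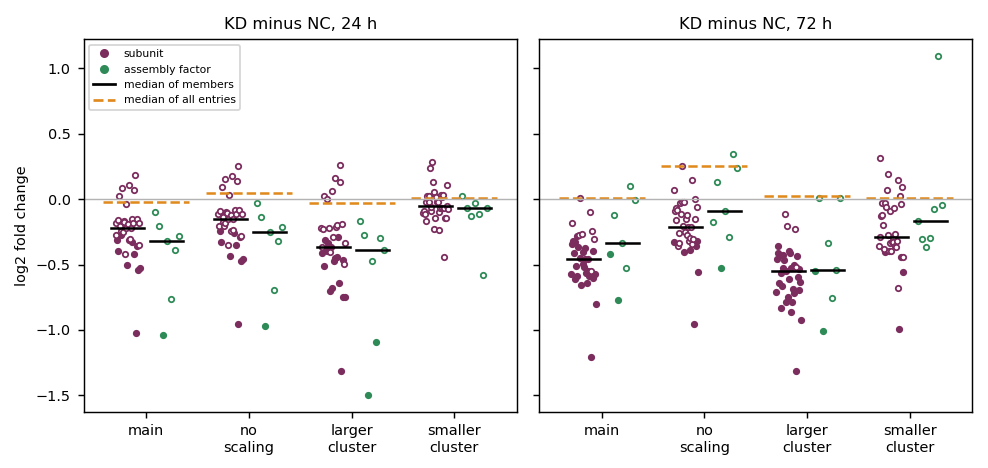
Log2 fold change (KD minus NC) of subunits and assembly factors at 24 h and 72 h with scaling, without it, and within each cluster of libraries; filled points were called lower, black lines are the members' medians and dashed lines the median of all entries. Without scaling at 72 h the dashed line stands at 0.25 and the subunit median at -0.21.

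Ndufa4 and Ndufa4l2 did not pass the threshold at either time. Ndufa4 (NM_010886), now counted as a subunit of cytochrome c oxidase, had 2889 to 3460 in KD 24 h (median 3137) and 3244 to 3471 in NC 24 h (median 3366). The 72 h KD libraries had 2087 to 3084 (median 2366) and NC 2903, 2747, 3298, 3263 and 2723. The changes were -0.08 ± 0.08 and -0.26 ± 0.11 (limma adjusted p = 0.493 and 0.117). Ndufa4l2 (NM_001098789), a relative induced by hypoxia signalling, had 3.76 to 25.4 in KD 24 h (median 20.8) and 4.89 to 40.5 in NC 24 h (median 27.5). KD libraries at 72 h had 44.8 to 69.5 (median 53.6), and the NC samples of the larger cluster had 120.5, 122 and 100.5 while those of the smaller had 34.6 and 29.2. The pooled change was -0.34 ± 0.34 (limma adjusted p = 0.513). Within clusters it went opposite ways, -0.98 (limma adjusted p = 0.000204) in the larger and 0.57 (limma adjusted p = 0.0577) in the smaller, and the difference between clusters was not tested. Exons of Ndufa4l2 overlap Shmt2 on the other strand.

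Whether the effect at 72 h differed from that at 24 h was tested as an interaction over all 4 groups. In limma 0 of 44 members were called, against 0.187% of all 59412 entries, and voom called 0 as well. At an unadjusted p under 0.05 there were 14 members, all subunits with a negative value, while 5.64% of all entries passed that level with a negative value. The interaction was negative in 32 of 35 subunits (median -0.22) and in 2 of 7 assembly factors (median 0.23). Ndufs3 had the lowest value (-0.75 ± 0.34, limma adjusted p = 0.389), followed by Ndufb6 (-0.49), Ndufb11 (-0.44) and Ndufa3 (-0.41). Ndufa3 was called within the larger cluster (-0.54, limma adjusted p = 0.0327), where 1.46% of all entries were called. Without scaling the subunit median of the interaction was -0.03, where that of all entries was 0.20.

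Some members changed with time in control cells. Between NC 24 h and NC 72 h, 4 of 44 members rose (Ndufa3 by 0.41, Ndufa1 by 0.40, Ndufa7 by 0.32 and Ndufv3 by 0.29). The 3 that fell were Ndufab1 by 0.85, Ndufa4 by 0.25 and Ndufb10 by 0.23 on the log2 scale. Of all entries 4.49% rose and 4.62% fell. The median was -0.03 over subunits and -0.10 over assembly factors, of which 0 were called and 1 (Ndufaf3, -0.35) passed an unadjusted p of 0.05, as 11.4% of all entries did in that direction. Ndufa4l2 had the largest value, 1.75 ± 0.57 (limma adjusted p = 0.0721), and its 2 NC 72 h samples of the smaller cluster lay far below the other 3. These NC libraries also enter the KD comparisons.

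The other assembly factors listed for complex I (Ecsit, Acad9, Tmem126b, Timmdc1, Foxred1, Nubpl, Tmem186 and Lyrm2) had a median of -0.53 at 24 h and -0.26 at 72 h. The earlier time had 2 of these 8 lower, Acad9 (-1.05 ± 0.24, limma adjusted p = 0.00775) and Ecsit (-0.67 ± 0.23, limma adjusted p = 0.0485), the partners of Ndufaf1. Acad9 was again lower at 72 h (-0.89 ± 0.25, limma adjusted p = 0.0209) and Ecsit was not called (-0.25, limma adjusted p = 0.168).

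Of the membrane arm subunits encoded by mitochondrial DNA, ND4L, ND5 and ND6 were tested, and the others are not analysed here. ND4L was lower at 24 h (-0.48 ± 0.12, limma adjusted p = 0.0121) and at 72 h (-1.06 ± 0.13, limma adjusted p = 8.579e-05). ND5 and ND6 were not called at 24 h (-0.18 and -0.27) and were lower at 72 h by -1.17 ± 0.10 (limma adjusted p = 7.112e-06) and -1.20 ± 0.20 (limma adjusted p = 0.000828). ND5 and ND6 are neighbours on opposite strands, and reads of the pair can be separated only where strand was used.

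Nuclear genes of the other respiratory complexes, listed by symbol, were set beside the subunits of complex I. At 24 h 17.8% of 45 genes with symbols of complexes II to V or cytochrome c were lower (median -0.17). At 72 h 58.7% of 46 were lower (median -0.42), with 1 higher, Cox4i2. Split by complex, the later counts were 2 of 4 of complex II, 7 of 10 of complex III with cytochrome c, 11 of 16 of complex IV and 7 of 16 of complex V, with medians of -0.33, -0.46, -0.47 and -0.33. Membership went by symbol alone. The complex V list thus also holds Atp5s (-1.18 at 72 h, limma adjusted p = 0.00413) and Atp5sl (0.24, limma adjusted p = 0.596), whose place as subunits was not checked. Mitochondrial ribosomal proteins had a median of -0.18 at 24 h (10 of 73 lower) and -0.20 at 72 h (20 of 73 lower). Whether complex I subunits differed from these lists was not tested.

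**Figure D5:**
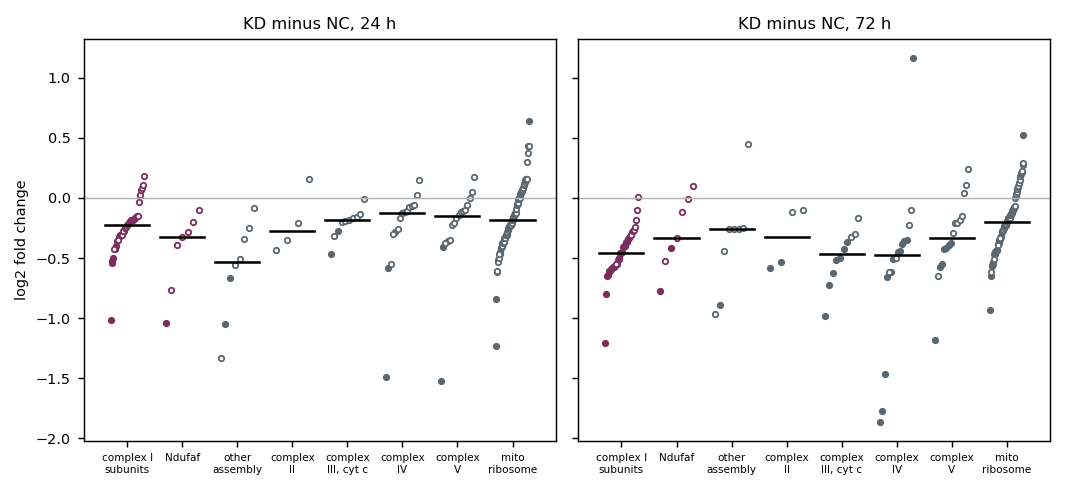
Log2 fold change (KD minus NC) at 24 h (left) and 72 h (right) of complex I subunits and Ndufaf assembly factors (purple) and of the other lists (grey); filled points were called by limma and black lines are medians. At 72 h the median of complex I subunits (-0.46) lies near those of complexes III (-0.46) and IV (-0.47), and that of the ribosomal proteins at -0.20.

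Brown or brite adipocyte markers fell along with the members, and general adipocyte markers were uneven. The summed level of 5 brown or brite markers (Ucp1, Cidea, Cox7a1, Elovl3 and Ppargc1a) was 318 to 462 scaled RPKM in KD 24 h and 444 to 860 in NC 24 h, and 390 to 749 against 1298 to 2185 at 72 h. That of 6 general adipocyte markers was 36090 to 48700 against 49060 to 51470 at 24 h, and 27110 to 36810 against 37860 to 49310 at 72 h. Most of that sum was Fabp4. Of the 6, Adipoq (-0.56) and Pparg (-0.45) were called at 24 h, and Fabp4 (-0.57), Adipoq (-0.95) and Lpl (-0.48) at 72 h. Plin1 and Cidec were called at neither time, and Cidec stood at 0.11 at 72 h (limma adjusted p = 0.556). Ucp1 fell by 1.17 at 24 h and by 2.36 at 72 h on the log2 scale (limma adjusted p = 0.00462 and 9.209e-06). The 4 macrophage markers in the table summed to 2.52 to 17.4 in KD and 4.55 to 26.1 in NC at 24 h, and to 5.67 to 10.9 and 7.68 to 30.6 at 72 h, with Ptprc under 1 RPKM in every group. Among them Csf1r was higher in KD at both times (1.21 and 1.24 on the log2 scale, limma adjusted p = 0.00653 and 0.00297), and Lyz2 was lower at 72 h (-3.68, limma adjusted p = 0.000667). Of the 3 muscle markers Ckm and Myh4 were under 1 RPKM, and Acta1 was lower at 72 h (-1.75, limma adjusted p = 0.0283). None of the preadipocyte markers tested (Col1a1, Thy1 and Pdgfra at both times, Dlk1 at 24 h) was called. In these bulk samples, fewer cells of a type and less RNA per cell cannot be told apart, and the part of adipocyte or other cell content in the members' changes was not tested.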

How the data were processed

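The 24 BRB-seq libraries were analysed from 1 deposited table. The authors aligned the reads to the NCBI Reference Sequence Database and derived RPKM in the Genomatix suite, where they also ran DESeq2. Build, strand handling and treatment of multiply mapping reads are not given in the sources used here. All values are RPKM as deposited, and the table holds 168326 entries, 128222 of them above 0. Whole reads were recovered from the steps of the RPKM values where these gave the entry's length (107049 entries). The 40094 entries with no length from the steps or from GENCODE were given the median length, which enters the filter and voom. Among the members these were Ndufa2, Ndufa3, Ndufa4, Ndufa6, Ndufa7, Ndufa11, Ndufa13, Ndufb5, Ndufb6, Ndufb9, Ndufb11, Ndufc1 and Ndufc2.

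An entry was kept where its RPKM reached the equivalent of 10 reads at the median depth of all libraries. This had to hold in at least as many libraries as the smaller group of the comparison had, with 15 reads or more in total. An entry could thus pass through either group alone. RPKM were divided by a trimmed mean of log ratios (30% of ratios and 5% of levels trimmed). Changes in log2(scaled RPKM + 0.1) were tested with limma 3.58.1 in R 4.3.3 (lmFit, eBayes with trend, two-sided), with Benjamini-Hochberg adjustment over all entries and a threshold of 0.05. KD and NC were compared at each time on their own, and the interaction over all 4 groups. The step was tested on simulated data. Replicate 6 of NC 72 h had odd read numbers in 15.5% of its low entries (54.6% to 56.4% elsewhere), so its recovered reads and its total, the highest of all, may be counted double. It was kept.

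Values by library were given for all assembly factors, core subunits (in full where called at 72 h), the 5 accessory subunits with the largest changes at 72 h, up to 5 members with the largest changes at 24 h, Ndufa4, Ndufa4l2 and Ndufab1. Members, lists and naming rules were chosen with earlier results of these data known. Alternatives covered scaling, pseudocount, filter, entry, replicate block, clusters of libraries, voom and each library left out. The values of 1 member are not reported here, although it stays in the counts and medians.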

Additional observations from a re-analysis of the deposited data

Results flagged for a closer look

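Among the 23 members given by library, 92 groups of 5 or 6 samples were examined for a sample set apart from the rest by Dixon's 95% criterion, which chance meets in about 1 group of 20, and 8 were. In NC 24 h, replicate 5 was lowest for Ndufaf1 (17.61 scaled RPKM, the others 24.38 to 26.39) and for Ndufs1 (102, the others 118 to 122.3), and replicate 4 was highest for Ndufb9 (1834, the others 1606 to 1688). In KD 24 h, replicate 6, which has the fewest reads, was highest for Ndufaf6 (10.48, the others 2.556 to 4.831) and lowest for Ndufaf7 (5.471, the others 11.84 to 15.19). In KD 72 h, replicate 5 was highest for Ndufb3 (304.4, the others 238 to 261.5). In NC 72 h, replicate 6 was highest for Ndufb11 (675, the others 540.4 to 577.1) and replicate 1 for Ndufab1 (17.1, the others 9.328 to 11.14).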

How the results depend on the processing

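Of the 12 members called at 24 h, the count became 2 (of 28, 7.14%, against 12.0% of all entries lower) with Ensembl entries, 5 (3.77% of all entries) without a filter, 6 (9.09% of all entries) with a replicate block, 21 in the larger and 0 in the smaller cluster, and 5 to 16 with each library left out. The 29 at 72 h became 17 (of 28, 60.7%) with Ensembl entries, 8 without scaling, 19 with the replicate block (8.33% of all entries), 4 in the smaller cluster, and 24 to 33 with a library left out. The replicate block used the numbers in the titles, which did not pair the libraries: deviations of same-numbered libraries correlated at -0.33 to 0.33 (mean -0.11, 6 pairs) at 24 h and -0.22 to 0.30 (mean 0.05, 5 pairs) at 72 h. The subunit median of -0.22 at 24 h became -0.36 in the larger and -0.05 in the smaller cluster (-0.26 to -0.20 with a library left out). That of -0.46 at 72 h became -0.21 without scaling and -0.29 in the smaller cluster (-0.50 to -0.39 with a library left out). Subunits minus assembly factors at 24 h went from 0.10 to 0.25 with Ensembl entries (0.03 to 0.18 with a library left out), and at 72 h from -0.12 to 0.00 in the larger cluster and -0.04 with Ensembl entries (-0.19 to -0.08 with a library left out). The interaction called 1 member in the larger cluster and 0 to 0 with a library left out. The 7 members changed in NC with time (9.11% of all entries) became 3 with Ensembl entries, 3 without a filter (2.94%) and 1 in the smaller cluster (3.21%; 5 to 7 with a library left out). Ndufs1 reversed to 0.015 in the smaller cluster at 24 h (limma adjusted p = 0.955), and Ndufab1 to -0.31 with its Ensembl entry at 72 h (limma adjusted p = 0.0413). The causes were not tested. Among changes of named members, 970 values kept direction and side of the threshold, 59 lost the call, 21 gained it, 2 reversed as given above, and 32 changed sign without a call in either setting. Members with few reads had wide errors: median reads per library were 23 for Ndufaf6, 28 for Ndufs3, 36.5 for Ndufaf5 and 41 for Ndufab1.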
